A study of Gallus gallus with 9 samples.

Results

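The genes described are 10 that make, carry, sense or destroy retinoic acid: STRA6, ALDH1A1, ALDH1A2, ALDH1A3, CRABP1, RARA, RARB, CYP26A1, CYP26B1 and CYP26C1. They were chosen by name, and all 10 had a row among the 14080 named genes of the files. RNA was sequenced from tissue of the chick embryo (Gallus gallus) in 3 groups of 3 libraries: neural crest from around the eye on embryonic day 3 (E3), endothelium of the cornea on day 5 (E5), and that endothelium with keratocytes, the cells of the stroma, on day 7 (E7). No treatment or transgene is named for any group, and nothing in the labels tells replicate libraries from repeat samples of 1 dissection. P-values therefore measure only the spread between these libraries, which may be technical.

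Retinoic acid is a small lipid made from vitamin A. Retinol enters cells through STRA6, is oxidised to retinal by retinol dehydrogenases and then to retinoic acid by the ALDH1A enzymes. The acid is held in the cytoplasm by CRABP proteins, acts in the nucleus through RAR receptors paired with RXR, and is destroyed by the CYP26 enzymes. In the mouse eye, retinoic acid made by the optic cup acts on the periocular mesenchyme through RAR receptors. ALDH1A1 and ALDH1A3 are known from the dorsal and ventral retina, and ALDH1A2 from mesenchyme.

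Levels are the authors' FPKM (fragments per kilobase of transcript, scaled to library depth), summed over the entries of a gene, and library totals ran from 9874339 to 23205388 expected counts. The E3 libraries correlated with each other at 0.991 to 0.992 (Pearson's r across genes, on log2(CPM + 1); genes are not independent of each other) and with the corneal libraries at 0.918 to 0.938. The corneal libraries did not separate by label. E7 replicate 3 correlated with E5 replicates 1 and 2 at 0.990 and 0.987 and with E7 replicates 1 and 2 at 0.952 and 0.959, and E5 replicate 3 correlated with E7 replicates 1 and 2 at 0.983 and 0.987 and with E5 replicates 1 and 2 at 0.962 and 0.966. No listed marker of either corneal cell type was at 0 in a whole group, but the 10 keratocyte markers with a row summed to 10554 and 9062 FPKM in E5 replicates 1 and 2 and to 10680 FPKM in E7 replicate 3, against 2724 FPKM in E5 replicate 3 and 3490 and 2700 FPKM in E7 replicates 1 and 2. These go against the labels, since keratocytes are named for E7 and not for E5. "E5" and "E7" below mean the libraries so labelled, and values without E5 replicate 3 and E7 replicate 3 are given for the 10 genes where a call or a called value changed by over 1.5 times. These libraries were left out because of their own profiles, so that the spread within the remaining groups is smaller by choice, and adjusted p-values without them are too small to be read as tests.

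From E3 crest to the corneal tissues, the synthesising enzyme ALDH1A2 rose 13.6-fold at E5 and 17.3-fold at E7, and the binding protein CRABP1 fell 18.3-fold and 36.1-fold. CYP26B1 rose 8.80-fold and 12.5-fold, ALDH1A3 and CYP26C1 fell from low levels (1.11 and 2.08 FPKM), and RARB rose 1.46-fold and 1.48-fold. RARA, ALDH1A1, CYP26A1 and STRA6 did not pass the test. In each comparison 3 of the 10 genes rose and 3 fell, at an adjusted p under 0.05 (edgeR's quasi-likelihood test, with p-values adjusted over 11727 genes after Benjamini and Hochberg, as for every adjusted p below). Of all genes tested, 36.1% were called at E5 (18.5% higher and 17.7% lower) and 33.7% at E7 (17.3% higher and 16.4% lower), and the median log2 fold change of all genes was 0.03 and 0.04, beside -0.01 and 0.45 for the 10 genes. Both comparisons use the same E3 libraries, so they are not independent. The FPKM ranges lay apart from E3 for 6 of the 10 genes at each stage, 2 higher and 4 lower, as they did for 56.4% of all genes at E5 (20% higher and 36.4% lower) and 54.7% at E7 (20.4% higher and 34.3% lower). Without E5 replicate 3 and E7 replicate 3, 8 of the 10 were called at E5 (3 higher, 5 lower) and 8 at E7 (4 higher, 4 lower), beside 50.8% of all genes (26.1% higher, 24.7% lower) and 43.3% (21.9% higher, 21.3% lower). All 10 genes passed the filter on low counts, ALDH1A1 with 2 to 12 counts per library. In bulk tissue, fewer cells of a type and less RNA per cell cannot be told apart.

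**Figure D1:**
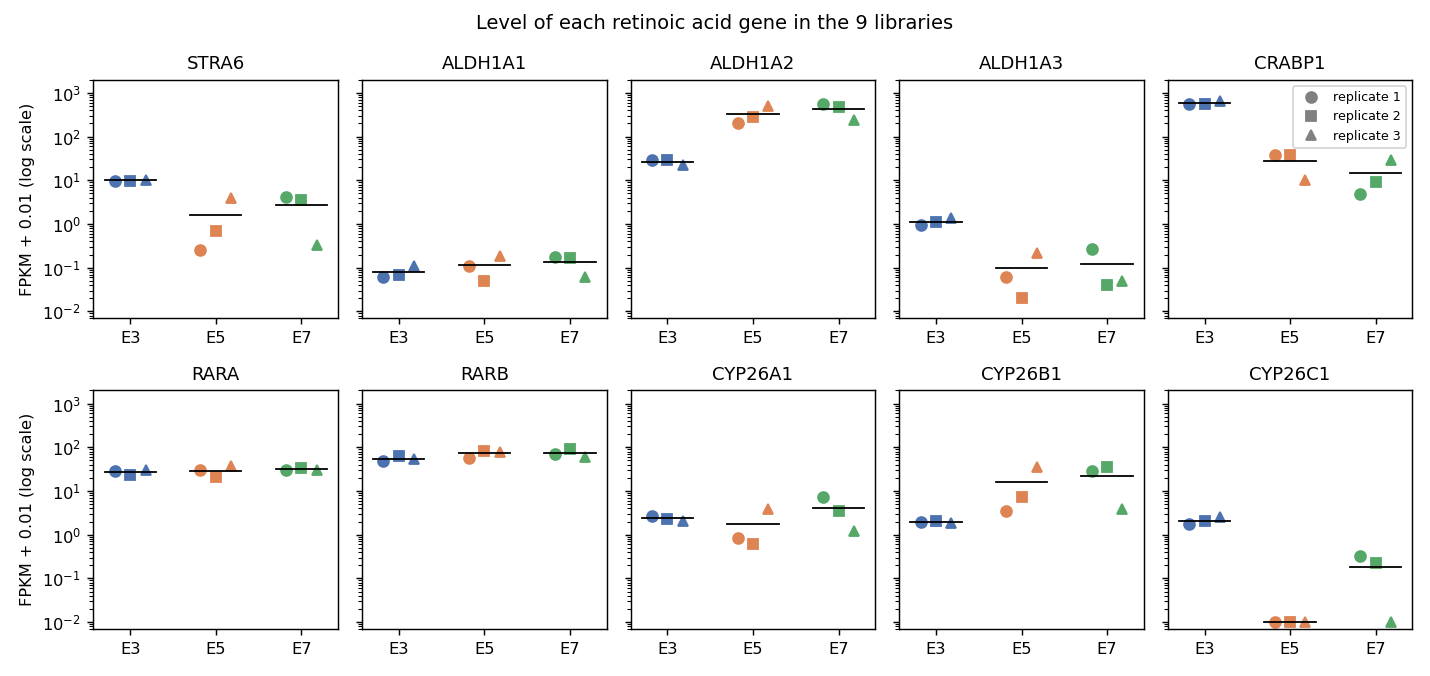
FPKM plus 0.01, on a log axis, of each gene in the 3 libraries of E3 (blue), E5 (orange) and E7 (green), with circles, squares and triangles for replicates 1, 2 and 3 and a line at the group mean. ALDH1A2 lies at 22.3 to 29.5 FPKM at E3 and at 210 to 553 FPKM in the corneal libraries, CRABP1 at 543 to 664 and 4.76 to 37.3 FPKM, and the E5 and E7 triangles lie away from their groups for STRA6, CRABP1, CYP26A1 and CYP26B1.

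The order of the levels changed with the tissue. At E3, CRABP1 stood first at 593 ± 63.4 FPKM (mean ± SD, n = 3 here and throughout), followed by RARB at 55.2 ± 7.50 FPKM. RARA (27.6 ± 4.37 FPKM) and ALDH1A2 (26.9 ± 4.01 FPKM) came next and their libraries overlapped, and STRA6 stood at 9.95 ± 0.176 FPKM. CYP26A1, CYP26C1 and CYP26B1, at 2.35 ± 0.300, 2.08 ± 0.374 and 1.97 ± 0.136 FPKM, could not be ordered beyond their spread, and ALDH1A3 (1.11 ± 0.207 FPKM) and ALDH1A1 (0.0700 ± 0.0265 FPKM) were last. In the corneal groups ALDH1A2 came first, at 326 ± 148 FPKM at E5 and 426 ± 166 FPKM at E7, and RARB second, at 72.1 ± 12.7 and 74.9 ± 16.8 FPKM. Below RARB, RARA, CRABP1 and CYP26B1 overlapped at E5, and at E7 CYP26B1 overlapped with RARA and with CRABP1 while every RARA library lay above every CRABP1 library.

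STRA6 (gene ID 415301), the membrane receptor that takes up retinol from its carrier protein, was listed at 9.85, 9.84 and 10.2 FPKM in the E3 libraries. It stood at 0.25, 0.69 and 3.89 FPKM in E5 replicates 1, 2 and 3, and at 4.24, 3.57 and 0.32 FPKM in those of E7. Every corneal library lay below every E3 library, and among the corneal libraries E5 replicates 1 and 2 and E7 replicate 3 were the lowest. With all 9 libraries neither difference passed edgeR's test, with a log2 fold change of -2.52 ± 1.04 (estimate ± SE) at E5 (adjusted p = 0.0921) and of -1.77 ± 1.01 at E7 (adjusted p = 0.210). STRA6 was nevertheless called lower in 6 of 18 alternatives at E5 and in 2 at E7. With all 9 libraries these were DESeq2 (adjusted p = 0.0215) and limma on log2(FPKM + 1) (adjusted p = 0.0163) and on log2(FPKM + 0.1) (adjusted p = 0.0348) at E5, and limma on log2(FPKM + 1) at E7 (adjusted p = 0.0483). The others left out E5 replicate 3 (-4.19), E7 replicate 3 (-2.52) or both (-4.19 at E5 and -1.26 at E7), and over all alternatives the adjusted p ran from 0.000140 to 0.219 and from 0.0179 to 0.357.

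Of the synthesising enzymes, ALDH1A2 (395844) carried nearly all of the family's transcripts. Its level was 29.5, 28.9 and 22.3 FPKM in the E3 libraries, 210, 276 and 493 FPKM at E5, and 553, 488 and 238 FPKM at E7. No corneal library overlapped with E3, and E5 replicate 3 and E7 replicates 1 and 2 were the highest. The log2 fold change against E3 was 3.76 ± 0.38 at E5 (adjusted p = 0.000340) and 4.11 ± 0.39 at E7 (adjusted p = 0.000242), and both calls were kept under all 18 alternatives, with values from 3.38 to 3.98 and from 3.86 to 4.38. ALDH1A2 made up 94.0 to 96.8% of the summed ALDH1A FPKM at E3 and at least 99.9% in each corneal library.

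The other ALDH1A enzymes were scarce. ALDH1A3 (395389) stood at 0.92, 1.08 and 1.33 FPKM at E3, from 72, 93 and 126 counts. It stood at 0.05, 0.01 and 0.21 FPKM at E5 and 0.26, 0.03 and 0.04 FPKM at E7, from 1 to 17 counts per library. All corneal libraries lay below those of E3, with log2 fold changes of -3.48 ± 1.01 (adjusted p = 0.0291) and -3.22 ± 1.02 (adjusted p = 0.0421). The calls were lost when any E3 library was left out, at E5 also without E5 replicate 1 or 2 (adjusted p up to 0.0948), and at E7 also without E5 replicate 1 or E7 replicate 2 or 3 (up to 0.111). The log2 fold change at E5 was -4.91 without E5 replicate 3 and -4.92 without E5 replicate 3 and E7 replicate 3 together, and that at E7 was -4.69 without E7 replicate 1. ALDH1A1 (395264), a dorsal retinal enzyme that is also a major soluble protein of keratocytes in several mammals, was listed at 0.04 to 0.18 FPKM across all 9 libraries and did not pass the test (0.74 ± 0.71 at E5, adjusted p = 0.449, and 1.0 ± 0.73 at E7, adjusted p = 0.321).

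CRABP1 (374211), the cytoplasmic binding protein that marks cranial neural crest in the early embryo, was among the abundant transcripts of the E3 tissue. It was listed at 543, 571 and 664 FPKM at E3, at 37.3, 37.0 and 10.2 FPKM at E5, and at 4.76, 9.10 and 29.8 FPKM at E7. The groups did not overlap with E3, and within the cornea E5 replicates 1 and 2 and E7 replicate 3 were the highest, the reverse of their place for STRA6 and ALDH1A2. The log2 fold change was -4.20 ± 0.75 at E5 (adjusted p = 0.00404) and -5.17 ± 0.79 at E7 (adjusted p = 0.00221), and all 18 alternatives kept both calls, with values from -4.61 to -3.79 and from -6.29 to -4.76, the E7 value being -6.29 without E7 replicate 3 and -6.27 without E5 replicate 3 and E7 replicate 3. The ratio of CRABP1 to ALDH1A2 FPKM in 1 library, which does not depend on the scaling between libraries, was 18.4, 19.7 and 29.8 at E3. It was 0.178, 0.134 and 0.0207 at E5 and 0.00861, 0.0186 and 0.125 at E7.

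The receptors RARA and RARB differed little between tissues. RARB (396266), whose gene is itself a target of retinoic acid, stood at 48.8, 63.5 and 53.5 FPKM at E3, 57.6, 81.0 and 77.9 FPKM at E5 and 70.5, 93.5 and 60.7 FPKM at E7. The FPKM of the groups overlapped. With the TMM factors of the test every corneal library lay above the E3 libraries, with log2 fold changes of 0.55 ± 0.18 at E5 (adjusted p = 0.0451) and 0.56 ± 0.18 at E7 (adjusted p = 0.0433). The calls held in 6 and 7 of 18 alternatives. They were lost without any E3 library, E5 replicate 2 or E7 replicate 1, at E5 also without E5 replicate 3 and at E7 without E7 replicate 2. Scaling by library size alone moved the median of all genes from 0.03 to -0.14 at E5 and from 0.04 to -0.10 at E7 and gave RARB a log2 fold change of 0.37 (adjusted p = 0.173) and 0.43 (adjusted p = 0.126). Over all alternatives its adjusted p ran from 0.0191 to 0.225 and from 0.0149 to 0.156. RARA (395213) stood at 29.3, 22.7 and 30.9 FPKM at E3, 30.9, 21.0 and 36.4 FPKM at E5 and 30.6, 33.7 and 30.6 FPKM at E7, with log2 fold changes of 0.26 ± 0.19 (adjusted p = 0.312) and 0.33 ± 0.19 (adjusted p = 0.214).

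**Figure D2:**
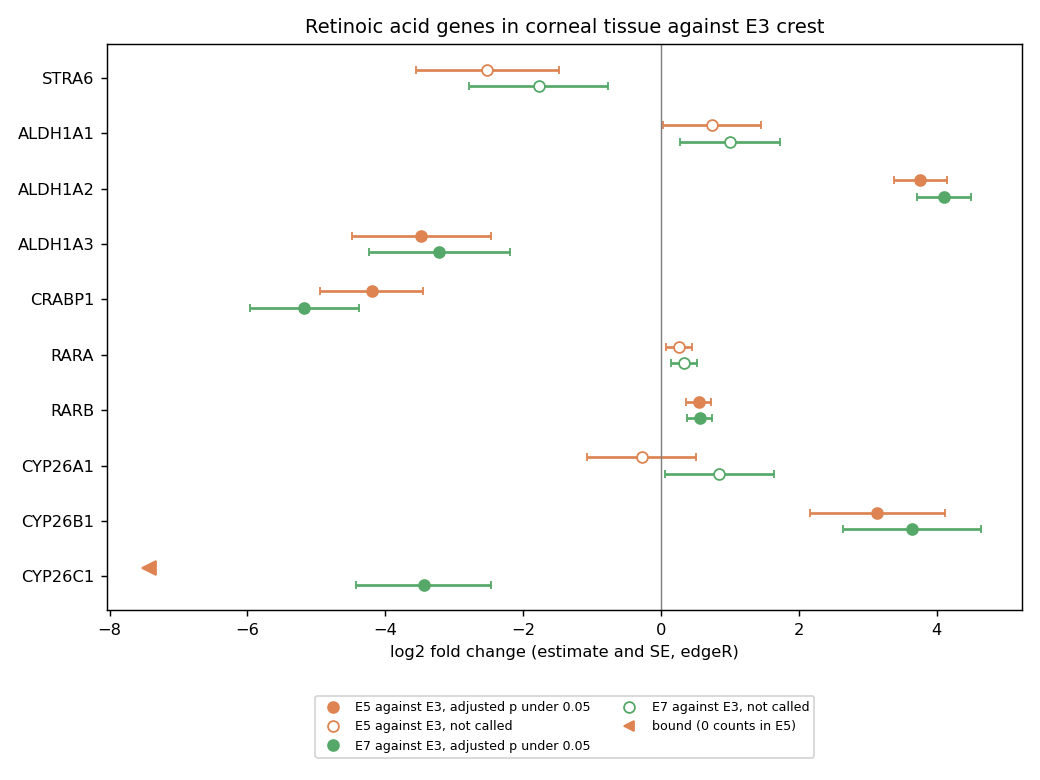
Log2 fold change against E3 for E5 (orange) and E7 (green), with the standard error, filled where the adjusted p was under 0.05; the triangle for CYP26C1 at E5 is a bound, from a floor of 3 counts over the E5 libraries. ALDH1A2 lies at 3.76 and 4.11 and CRABP1 at -4.20 and -5.17, while RARA lies at 0.26 and 0.33.

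The degrading enzymes changed in make-up in every corneal library. Their summed level lay below E3 in E5 replicate 1 and E7 replicate 3 and above it in the other corneal libraries. CYP26B1 (428809) was listed at 1.99, 2.10 and 1.83 FPKM at E3, at 3.57, 7.20 and 36.2 FPKM at E5, and at 28.2, 35.6 and 3.95 FPKM at E7. No corneal library overlapped with E3, and E5 replicate 3 and E7 replicates 1 and 2 stood several times above the other corneal libraries. The log2 fold change was 3.14 ± 0.98 at E5 (adjusted p = 0.0374) and 3.64 ± 1.0 at E7 (adjusted p = 0.0242), and the calls held in 9 and 10 of 18 alternatives. Among other settings, they were lost when any E3 library or E7 replicate 1 was left out. At E5 the call was also lost without E5 replicate 3, and at E7 without E7 replicate 2. Without E5 replicate 3 and E7 replicate 3 together, the values were 1.66 (adjusted p = 0.00197) and 4.13 (adjusted p = 4.43e-05), at the low ends of ranges that reached 0.122 and 0.0827.

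CYP26C1 (423806), a close relative of CYP26A1, was found in the E3 libraries at 1.74, 2.02 and 2.48 FPKM, from 122, 154 and 208 counts. It had 0 counts in all 3 E5 libraries, so with the E5 libraries set at 3 counts in sum it was at least 173-fold lower there (adjusted p = 0.00457). At E7 it had 12, 11 and 0 counts, or 0.32, 0.21 and 0 FPKM. The E7 libraries lay below those of E3, with a log2 fold change of -3.45 ± 0.99 (adjusted p = 0.0398), and leaving out any of the E3 libraries, or E7 replicate 1 or 2, ended the call (adjusted p up to 0.110), with a value of -4.12 without E7 replicate 1.

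CYP26A1 (408183), the enzyme induced by retinoic acid in many embryonic tissues, stood at 2.65, 2.34 and 2.05 FPKM at E3. It stood at 0.81, 0.59 and 3.84 FPKM at E5 and at 7.36, 3.46 and 1.20 FPKM at E7. The E3 values lay inside the range of each corneal group, and neither difference passed the test (-0.28 ± 0.79, adjusted p = 0.808, and 0.84 ± 0.79, adjusted p = 0.444). Without E5 replicate 3 and E7 replicate 3 it was lower at E5 (-1.56, adjusted p = 0.0158) and higher at E7 (1.27, adjusted p = 0.0285), where the adjusted p over all alternatives reached 0.979 and 0.954. The direction at E5 was not stable to single libraries, at 0.04 without E5 replicate 1, 0.14 without E5 replicate 2 and -1.56 without E5 replicate 3.

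**Figure D3:**
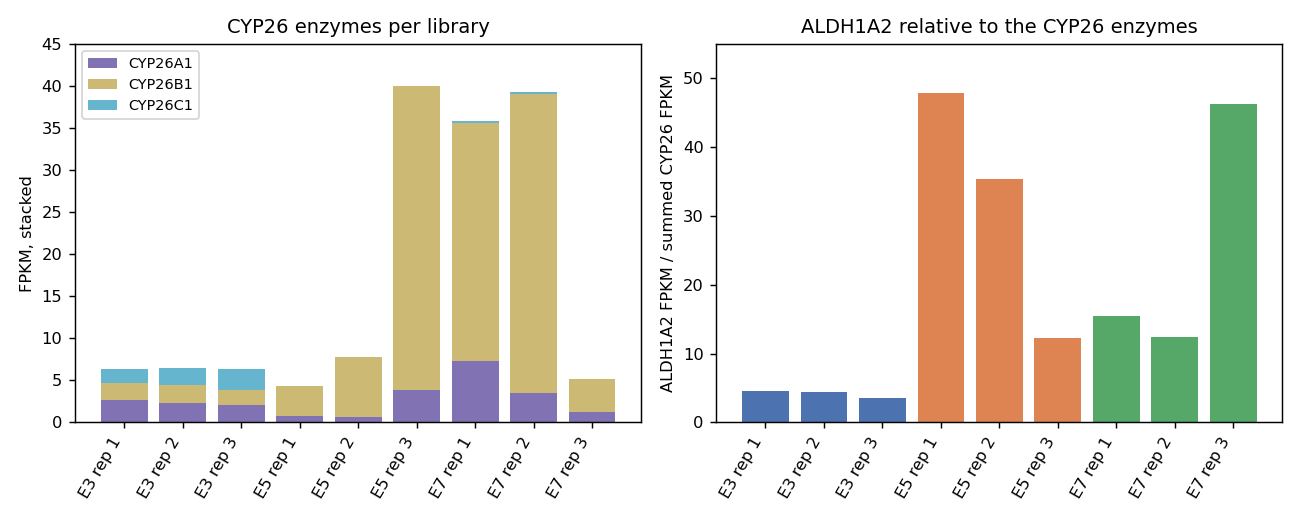
Left, FPKM of CYP26A1, CYP26B1 and CYP26C1 stacked for each library; right, the ratio of ALDH1A2 FPKM to the summed CYP26 FPKM, coloured by group (E3 blue, E5 orange, E7 green). The summed CYP26 level is 6.36 to 6.46 FPKM at E3, 35.9 to 40.1 FPKM in E5 replicate 3 and E7 replicates 1 and 2, and 4.38 to 7.79 FPKM in the other corneal libraries.

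At E3 the CYP26 enzymes shared the family's summed FPKM almost evenly, with 32.2 to 41.5% on CYP26A1, 28.8 to 32.5% on CYP26B1 and 27.3 to 39.0% on CYP26C1. In the corneal libraries CYP26B1 held 76.7 to 92.4%. The ratio of ALDH1A2 to the summed CYP26 level was 4.62, 4.48 and 3.50 at E3. It was 47.9, 35.4 and 12.3 at E5 and 15.4, 12.4 and 46.2 at E7, so that it was higher in every corneal library than in any E3 library. These are ratios of transcript levels and say nothing of the amounts or activity of the enzymes.

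By its labels, the comparison of E7 with E5 sets tissue with keratocytes against endothelium, although keratocyte markers were present in both. Their sums were highest in E7 replicate 3 and E5 replicates 1 and 2. With all 9 libraries none of the 10 genes was called, nor was any of the 11727 genes tested (0%), while 279 genes (2.38%) and, of the 10, CYP26C1 had an unadjusted p under 0.05. DESeq2 called 11 genes and limma 0 or 1, none of them among the 10. The FPKM of the E5 and E7 libraries overlapped for all 10 genes, where 4.65% of all genes lay apart (2.64% higher and 2% lower at E7). The largest difference that did not rest on a group at 0 counts was that of CYP26A1, at 1.13 ± 0.80 (adjusted p = 0.971).

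Without E5 replicate 3 and E7 replicate 3, 6 of the 10 genes passed the test, where 2740 of 11727 genes did (23.4%; 11.6% higher and 11.7% lower). In the remaining libraries labelled E7, the log2 level of STRA6 was higher than in those labelled E5 by 2.94, of CYP26A1 by 2.82, of CYP26B1 by 2.47 and of ALDH1A2 by 0.99. CRABP1 was lower, with a difference of -2.48, and CYP26C1, with 23 counts at E7 and 0 at E5, was at least 15-fold higher when E5 is set at 3 counts in sum. RARA, RARB, ALDH1A1 and ALDH1A3 did not pass, at 0.20, 0.17, 1.18 and 2.04. These values describe 2 libraries against 2, left after a choice that itself sets the profiles apart, and their p-values are not given. The differences were called under no other alternative (the adjusted p of each of the 6 genes ranged up to 1), and the direction is that of labels which the keratocyte markers go against.

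**Figure D4:**
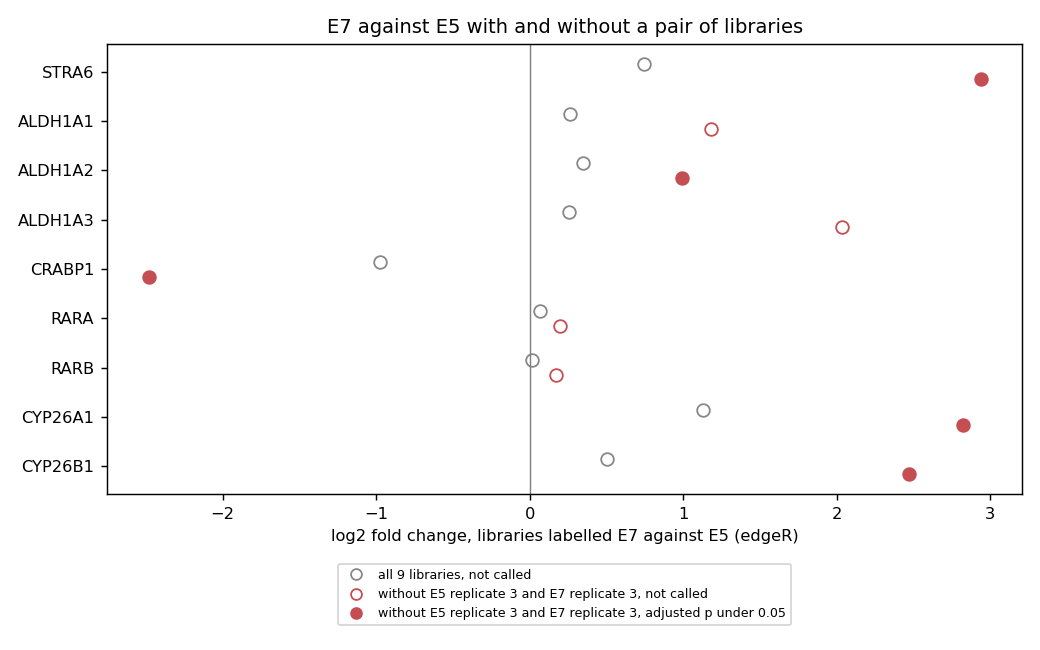
Log2 fold change of the libraries labelled E7 against those labelled E5 for 9 genes, with all 9 libraries (grey) and without E5 replicate 3 and E7 replicate 3 (red), filled where the adjusted p was under 0.05; CYP26C1, with 0 counts at E5, is not drawn. STRA6 moves from 0.74 to 2.94, CYP26B1 from 0.50 to 2.47 and CRABP1 from -0.98 to -2.48, and RARB lies at 0.01 and 0.17.

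Markers of neighbouring eye tissues varied along with some of these genes. The 9 surface ectoderm and corneal epithelium markers with a row summed to 11.1 to 13.4 FPKM at E3, to 6.97, 5.86 and 53.4 FPKM at E5 and to 123, 64.9 and 9.46 FPKM at E7, none of them at 0 in a whole group. EPCAM, an epithelial adhesion protein and the most abundant marker of the list in E5 replicate 3 and E7, stood at 1.61, 1.98 and 31.7 FPKM at E5 and 72.5, 37.9 and 3.34 FPKM at E7. Among the corneal libraries, those with most of it (E5 replicate 3 and E7 replicates 1 and 2) were those with most ALDH1A2, CYP26A1, CYP26B1 and STRA6 and with least CRABP1. The 11 pigmented epithelium and melanocyte markers summed to 10.8 to 12.0 FPKM at E3, to 8.57, 8.96 and 20.6 FPKM at E5 and to 25.2, 23.0 and 8.08 FPKM at E7, again higher in E5 replicate 3 and E7 replicates 1 and 2 than in the other corneal libraries, with none at 0 in a whole group. Most of the sum was MITF, PMEL and DCT. RPE65 and TYR did not separate these libraries, with RPE65 at 0.34, 0.48 and 0.10 FPKM at E5 and 0.59, 0.05 and 0.27 FPKM at E7. The part of these cell types in the results was not tested.

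ALDH1A3 and CYP26C1, both known from the developing retina, were set beside its markers. The 10 neural retina markers with a row summed to 15.8 to 17.9 FPKM at E3, 10.7 to 17.2 FPKM at E5 and 9.24 to 18.9 FPKM at E7, nearly all of it SFRP2, a secreted WNT modulator at 13.6 to 16.3 FPKM at E3. RAX, an eye field factor, stood at 0.27 to 0.37 FPKM at E3. At E5, RAX, SIX6, TBX5 and NEUROD1 were at 0 counts in all libraries, and at E7 only NEUROD1 was. Markers of migratory crest and its glia, 11 of 11 with a row, summed to 146 to 167 FPKM at E3, 68.0 to 118 FPKM at E5 and 74.7 to 114 FPKM at E7, and 6 of them fell in each comparison, as CRABP1 did, while SNAI2 rose at E5. SOX10, which defines migratory crest and its glia, stood at 14.5 to 17.2 FPKM at E3 and at 0.01 to 1.0 FPKM in the corneal libraries, and the corneal sums are carried mainly by ETS1, SNAI2, TFAP2A and, in E5 replicates 1 and 2 and E7 replicate 3, EDNRB. Erythroid markers, 6 of 9 with a row, summed to 5397 to 6311 FPKM at E3 and to 2.64 to 350 FPKM in the corneal libraries. Of the other lists, summed levels at E3, E5 and E7 were 401 to 444, 2364 to 2451 and 2082 to 2397 FPKM for corneal endothelium, and 441 to 521, 1092 to 1383 and 1072 to 1249 FPKM for periocular mesenchyme. Vascular endothelium markers, 10 of 10 with a row, summed to 128 to 151, 64.4 to 83.5 and 35.2 to 63.0 FPKM, but most of the corneal sum was ERG, which rose (16.5 ± 1.64, 62.0 ± 13.1 and 40.7 ± 14.6 FPKM), and 5 others fell, such as CDH5, which defines these cells (38.9 ± 3.02, 1.38 ± 2.12 and 1.76 ± 1.56 FPKM). Lens markers summed to 1.26 to 2.84 FPKM over all libraries. The part of crest cells, vessels and blood in the fall of CRABP1, and of retinal tissue in the E3 levels of ALDH1A3 and CYP26C1 was not tested.

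Beyond these 10 genes, 58 of 69 listed genes of the pathway had a row and 45 of them passed the filter on low counts, and none was called at E7 against E5. The counts below stand beside 18.5% of all genes higher and 17.7% lower at E5, and 17.3% and 16.4% at E7. Among genes for vitamin A uptake, transport and storage, 7 of 14 with a row were tested, of which 1 rose and 1 fell at E5 and 1 rose at E7 (median log2 fold change 0.23 and 0.43). BCO2, a carotenoid-cleaving enzyme, was listed at 0, 0.51 and 0.27 FPKM at E3, at 12.2, 12.7 and 1.52 FPKM at E5 and at 1.95, 1.10 and 10.1 FPKM at E7 (5.23 ± 1.41, adjusted p = 0.0219, and 4.20 ± 1.36, adjusted p = 0.0451). It was highest in E5 replicates 1 and 2 and E7 replicate 3, and its E7 call was lost without any E3 library, without E5 replicate 1 or 2 or without E7 replicate 1 or 3, at up to 0.142, and its E5 call without E3 replicate 1 or 3 or E5 replicate 1 or 2, at up to 0.0771. Without E3 replicate 2 its values were 6.13 at E5 and 5.11 at E7. Without E7 replicate 3 its E7 value was 2.60, and without E5 replicate 3 and E7 replicate 3 it was 2.59. LPL, a lipase, fell at E5 from 3.05 ± 0.0808 to 1.16 ± 0.451 FPKM (-1.17 ± 0.38, adjusted p = 0.0443), a call kept in 8 of 18 alternatives and lost without any E3 library, E5 replicate 1 or 2, or E7 replicate 1 or 2.

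Of 11 retinol and retinal dehydrogenases and reductases tested, 3 rose and 1 fell at E5, and 2 rose and 1 fell at E7 (median 0.19 and 0.08). DHRS3, which turns retinal back into retinol and is induced by retinoic acid, stood at 7.59, 9.50 and 9.63 FPKM at E3, 55.9, 51.1 and 70.0 FPKM at E5 and 73.6, 83.9 and 54.1 FPKM at E7. All corneal libraries lay above E3 (2.73 ± 0.16, adjusted p = 1.90e-05, and 2.93 ± 0.16, adjusted p = 1.67e-05), and all 18 alternatives kept both calls. DHRS7 rose by 0.34 ± 0.07 (adjusted p = 0.00912) and 0.30 ± 0.07 (adjusted p = 0.0165). Both calls were lost when scaled by library size alone and under both limma fits (adjusted p over all alternatives up to 0.186 and 0.189). That at E7 was also lost without E3 replicate 1 or 2 or E7 replicate 2. ADH1C, an alcohol dehydrogenase, rose at E5, to 4.17, 4.78 and 0.70 FPKM from 0.317 ± 0.0551 FPKM (3.54 ± 0.95, adjusted p = 0.0215, lost without any E3 library or E5 replicate 1 or 2, at up to 0.0761). CYP1B1, an enzyme that can make retinoic acid in the chick embryo, fell from 1.26 ± 0.0569 FPKM to 0.397 ± 0.0850 and 0.300 ± 0.135 FPKM (-1.47 ± 0.39, adjusted p = 0.0211, lost without any E3 library or E5 replicate 2, and -1.92 ± 0.40, adjusted p = 0.00838).

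Of 12 other binding proteins, receptors and cofactors, 3 rose and 2 fell at E5, and 2 rose and 2 fell at E7 (median 0.20 and 0.13). FABP5, a fatty acid binding protein that also carries retinoic acid, stood at 15.5, 18.2 and 16.3 FPKM at E3, 0.30, 0.20 and 2.08 FPKM at E5 and 0.93, 2.23 and 0.20 FPKM at E7. Like CRABP1 it did not overlap with E3 in any corneal library (-4.15 ± 0.98, adjusted p = 0.0129, and -3.76 ± 0.97, adjusted p = 0.0193, the latter lost without E3 replicate 2 or 3 or E7 replicate 1, at up to 0.0605). Its value at E5 was -5.82 without E5 replicate 3, with or without E7 replicate 3, and at E7 -4.75 without E7 replicate 2. RXRA, a partner of the RAR receptors, rose from 10.6 ± 1.63 to 15.7 ± 0.377 FPKM at E5 (0.75 ± 0.13, adjusted p = 0.00365) and to 13.7 ± 1.35 FPKM at E7 (0.51 ± 0.13, adjusted p = 0.0183). The E7 call of RXRA was lost without E3 replicate 2 or 3, with the replicate block and under both limma fits. Its FPKM at E7 overlapped with E3. The coactivator NCOA1 rose by 0.72 ± 0.15 (adjusted p = 0.00724) and 0.86 ± 0.15 (adjusted p = 0.00363). PPARD, a nuclear receptor, rose at E5 by 0.66 ± 0.16 (adjusted p = 0.0160). That call was lost without E3 replicate 2 or 3, when scaled by library size alone, under both limma fits and with the entry of most counts alone. The corepressor NCOR1 fell at E7 by -0.46 ± 0.13 (adjusted p = 0.0268, lost without E3 replicate 1 or 2 or E7 replicate 1 or 2). NRIP1, a corepressor induced by retinoic acid, fell at E5 by -0.58 ± 0.16 (adjusted p = 0.0235, lost without E3 replicate 2 or E5 replicate 1 or 3).

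Genes known to respond to retinoic acid in other settings went both ways, with 4 of 17 higher and 6 lower at E5 and at E7 (median -0.01 and 0.15). HIC1, a transcriptional repressor, rose from 6.54 ± 0.638 to 46.1 ± 11.9 and 40.8 ± 16.9 FPKM (3.01 ± 0.35, adjusted p = 0.000622, and 2.80 ± 0.35, adjusted p = 0.000885). RARRES1, named for its response to a retinoid in human skin, rose from 20.8 ± 0.884 to 51.1 ± 3.02 and 50.4 ± 5.72 FPKM (1.48 ± 0.13, adjusted p = 0.000159, and 1.42 ± 0.13, adjusted p = 0.000194). In both, and in DHRS3, which is also on this list, the corneal libraries lay apart from E3.

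The orphan nuclear receptors NR2F1 and NR2F2 fell. NR2F1 stood at 70.6, 59.7 and 69.8 FPKM at E3, 7.14, 4.95 and 11.3 FPKM at E5 and 10.7, 10.4 and 6.54 FPKM at E7 (-2.94 ± 0.28, adjusted p = 0.000264, and -2.73 ± 0.28, adjusted p = 0.000383). NR2F2 fell from 91.4 ± 11.4 to 13.8 ± 5.85 and 16.3 ± 2.20 FPKM (-2.56 ± 0.26, adjusted p = 0.000319, and -2.35 ± 0.26, adjusted p = 0.000480). RARRES2, which encodes the secreted protein chemerin, fell from 72.6 ± 1.68 to 19.3 ± 6.47 and 26.9 ± 7.00 FPKM (-1.74 ± 0.25, adjusted p = 0.00148, and -1.31 ± 0.24, adjusted p = 0.00509). All 18 alternatives kept the calls of HIC1, RARRES1, NR2F1, NR2F2 and RARRES2 in both comparisons.

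Without E5 replicate 3 and E7 replicate 3 the retinoic acid responsive list had 5 genes higher and 7 lower at E5 and 5 higher and 6 lower at E7. The dehydrogenases then had 4 higher and 1 lower at E5 and 4 higher and 2 lower at E7, and uptake and transport 1 higher and 1 lower, and 2 higher and 0 lower, while the binding proteins and receptors had the same counts as with all libraries. These counts against E3 stand beside 50.8% of all genes at E5 (26.1% higher and 24.7% lower) and 43.3% at E7 (21.9% higher and 21.3% lower). Between E7 and E5, where no gene of these lists was called with all libraries, 5 responsive genes were then higher in the libraries labelled E7 (DHRS3, MEIS1, NR2F1, NR2F2 and RARRES2) and 2 were lower (HIC1 and NAV2). Of the other lists, LPL, RBP5, FABP5 (2.56) and again DHRS3 were higher, and BCO2 (-3.14), ADH1C (-2.77) and ADH4 were lower. The counts between E7 and E5 stand beside 23.4% of all genes (11.6% higher and 11.7% lower), and MEIS1, NAV2, RBP5 and ADH4 are named after their values were seen.

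**Figure D5:**
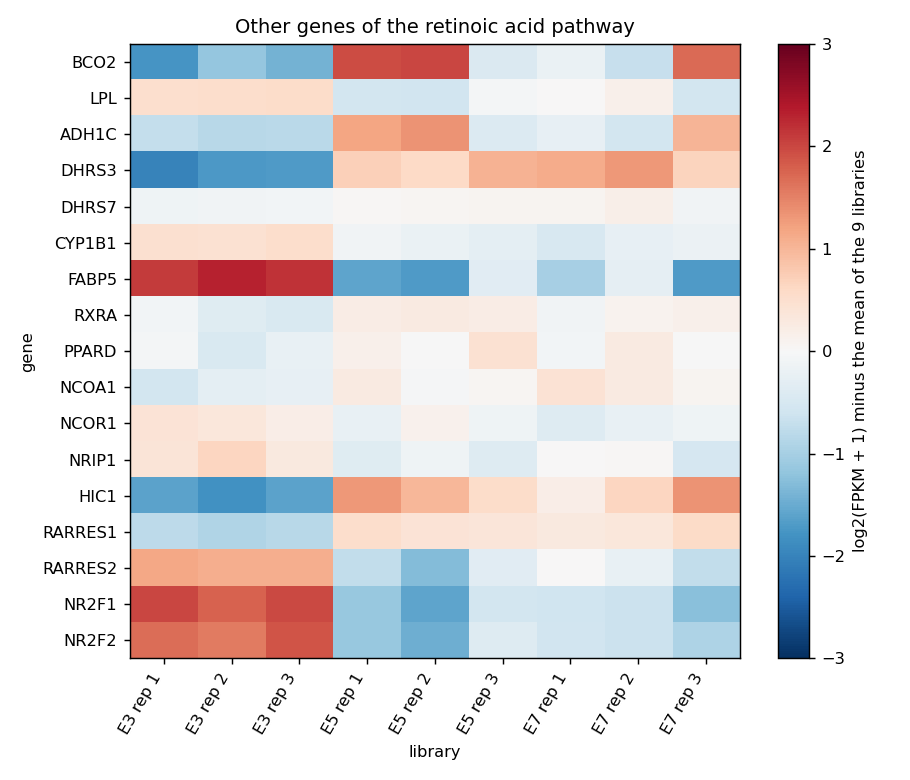
Log2(FPKM + 1) of 17 other genes of the pathway in each library, minus the mean of the gene over the 9 libraries (colour, from -3 to 3). DHRS3, HIC1 and RARRES1 are above their mean in the corneal libraries and FABP5, NR2F1, NR2F2 and RARRES2 in the E3 libraries, while BCO2 and ADH1C are highest in E5 replicates 1 and 2 and E7 replicate 3.

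The genes nearest to a member in pattern were found by the root mean square difference of centred log2(FPKM + 1) over the 9 libraries. Nearest to ALDH1A2 were the kinase gene MAP3K15 (0.164), MXRA8 (0.201) and FBLN5, which encodes the elastic fibre protein fibulin-5 (0.239), where the median over all genes was 1.85. MAP3K15 stood at 0.01 to 0.04 FPKM at E3, 8.01, 9.17 and 20.7 FPKM at E5 and 17.3, 18.7 and 8.98 FPKM at E7, and like ALDH1A2 it was highest in E5 replicate 3 and E7 replicates 1 and 2. The added 1 shrinks differences between levels near 0, so genes can lie near in this measure with unlike fold changes. The log2 fold change against E3 in edgeR was 8.77 at E5 and 8.99 at E7 for MAP3K15, beside 3.76 and 4.11 for ALDH1A2. Nearest to CYP26B1 were CCL4 (0.265), TTC9 (0.284) and CCL17 (0.289), of which CCL4 and CCL17 encode chemokines, with a median over all genes of 1.55. CCL4 was at 0 FPKM in all E3 libraries and in E5 replicate 1. It was called neither at E5 nor at E7 against E3 (adjusted p = 0.0745 and 0.0590, edgeR). CCL17 stood at 0.09 to 0.29 FPKM at E3, from 1 to 3 counts per library. TTC9 stood at 0.95 to 1.23 FPKM at E3, 1.78, 4.39 and 18.6 FPKM at E5 and 27.1, 16.9 and 2.70 FPKM at E7.

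No gene lay as near to CRABP1, whose closest were the laminin chain LAMA4 (0.829), the RNA-binding protein LIN28A (0.861) and the forkhead factor FOXD2 (0.893), beside a median over all genes of 2.51. LAMA4 stood at 21.9 to 22.7 FPKM at E3, 1.87, 2.99 and 0.44 FPKM at E5 and 0.15, 0.41 and 1.78 FPKM at E7, with the same corneal libraries highest as for CRABP1. LIN28A stood at 0 to 0.07 FPKM in the corneal libraries. Its log2 fold change against E3 was -9.29 at E5 and -10.6 at E7, beside -4.20 and -5.17 for CRABP1. Nearest to RARB and RARA, whose levels varied least among these members, were STK17B (0.127), TPM2 (0.128) and TRIO (0.129) for RARB, and ARHGAP35 (0.0798), SPR (0.0818) and ZDHHC5 (0.0888) for RARA, beside medians of 0.413 and 0.364.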

How the data were processed

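RNA from 3 chick tissues was profiled in 9 libraries, grouped by their titles. Per the file headers, the authors deposited, for every entry of a library, 2 values: an FPKM and an expected count, which can be fractional. Per the submitters' processing notes, the tools included HISAT and Bowtie2 and the build was galGal5. Tool versions, the program that counted and whether strand was used were not given in the sources used here. Deposited FPKM values start at 0.01, and where a library does not list an entry its value was set to 0.

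Of 46855 entries, 7303 were matched to genes by gene number and 16615 by transcript accession, version ignored, with a RefSeq table of assembly GRCg7b, and summed into 14080 genes. Between 76.5 and 78.5% of a library's counts fell on these, and the 22937 other entries count only in the library totals. Transcripts of a member among those entries would not be in its level.

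Summed expected counts were rounded and tested with edgeR 4.0.16 (R 4.3.3; TMM factors, filterByExpr, quasi-likelihood F-test) in a single fit of all 9 libraries without covariates. The Benjamini-Hochberg adjustment ran over 11727 genes, with a threshold of 0.05. The SE is the absolute log2 fold change divided by the square root of F. The 3 comparisons share libraries. The procedure was tested on simulated data. The alternatives tried were DESeq2 1.42.0, RLE factors, scaling by library size alone, all genes without a filter, limma 3.58.1 on log2(FPKM + 1) and log2(FPKM + 0.1), the entry of a gene with most counts alone, a replicate block, each library left out, and E5 replicate 3 with E7 replicate 3 left out, all but that without a filter on the genes of the main filter. Floors of 3 counts over a group cover counting error only; per library, 3 counts correspond to 0.129 to 0.304 CPM. Replicates differed by more than counting noise in every pair (chi-square per degree of freedom 9.73 to 144).

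The members, 4 pathway lists, 10 marker lists and the naming rule were chosen with earlier results of these data known. All members were named; of each pathway list, up to 3 called genes per direction with a mean FPKM of 5 or more, and every called gene where a direction held 5 or fewer; and, for members with a group mean of 10 FPKM or more, the 3 nearest genes. A few of the genes so chosen are counted in the lists but not reported by name here.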

Additional observations from a re-analysis of the deposited data

How the results depend on the processing

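The calls of ALDH1A2 and CRABP1 against E3 and the E5 fall of CYP26C1 held under all 18 alternatives, while those of RARB, CYP26B1 and ALDH1A3, and that of CYP26C1 at E7, were lost under some. The single libraries whose removal ended a call are given above. At E5, CYP26B1 and RARB were also lost under both limma fits and with the entry of most counts alone. At E7, CYP26B1 and RARB were also lost with that entry alone and under limma on log2(FPKM + 1). ALDH1A3 and CYP26C1 were lost at E7 with that entry alone and with the replicate block. Both of these genes have a single entry, so their own counts were unchanged with the entry of most counts alone. No called difference of the 10 genes changed sign under an alternative. With 1 library left out, 2784 to 4800 genes were called at E5 against E3 (4235 with all), 2604 to 4481 at E7 against E3 (3954) and 0 to 1 at E7 against E5 (0). Of the 10 genes, 3 to 7 (6 with all), 2 to 6 (6) and 0 were then called, the lowest counts without an E3 library and, at E7, also without E7 replicate 2. Using the entry with most counts alone left 2 of the 10 called at E7 against E3. For E7 against E5, DESeq2 called 11 genes, limma on log2(FPKM + 0.1) called 1, and leaving out E5 replicate 3 and E7 replicate 3 gave 2740 genes and 6 of the 10. Of the calls, 51.1% were higher at E5 and 51.3% at E7, which fell to 35.8% and 38.6% by library size alone, 32.3% and 34.6% by limma on log2(FPKM + 1), and 33.7% and 36.0% on log2(FPKM + 0.1). The filter, RLE factors and, against E3, DESeq2 kept the counts within 1.5 times. The alternatives for genes outside the 10 were added after seeing the data. Some of their calls were also lost under settings not named above, such as the replicate block for FABP5 and NCOR1 at E7. The TMM factors were 1.07 to 1.09 at E3 and 0.921 to 1.01 in the corneal libraries. Library size alone and limma on FPKM leave these factors out, as do the FPKM ranges given above. Why the factors differed between tissues, and the cause of the other shifts, was not tested. With the replicate number as a block, 3124, 2893 and 0 genes and 5, 3 and 0 of the 10 were called. Deviations from the group means of same-numbered E5 and E7 libraries correlated at -0.481, -0.351 and -0.772. These values cannot show whether the numbers pair the libraries, since replicate 3 of each group lay nearer to the other label. Deviations of same-numbered E3 and corneal libraries correlated at -0.00374 to 0.0839. Depth limits ALDH1A1, ALDH1A3 and CYP26C1, at 0 to 17 counts in each corneal library.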

Other observations

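Several of the genes had more than 1 entry in the files, which differ in their transcript and length, and the split of reads between such entries is an estimate that can shift between them. RARB had 5 entries. The most abundant, of 2764 bases, held 76.8 to 78.4% of the gene's FPKM at E3, 63.4, 71.0 and 75.8% at E5 and 77.5, 79.8 and 63.0% at E7. The next, of 2003 bases, held 18.2 to 19.4% at E3, 25.1, 25.3 and 16.0% at E5 and 15.6, 17.5 and 29.6% at E7. E5 replicates 1 and 2 and E7 replicate 3, with the larger share of the shorter entry, thus stood apart in the make-up of RARB as well, while its summed level did not separate them. No test was made of this difference.

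CYP26B1 had 2 entries, of 3876 and 4089 bases. The longer held 8.04, 30.0 and 25.7% of the gene's FPKM at E3, and 31.8 to 58.7% in the corneal libraries. Both were higher at E7 replicates 1 and 2 and E5 replicate 3, at 17.2 to 19.5 FPKM for the shorter and 11 to 16.8 FPKM for the longer, than in any other library. CYP26A1 also had 2 entries, the longer holding 25.4 to 71.2% of its FPKM, and in STRA6, with 4, a single entry held 83.5 to 100% in every library.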
